A study of Mus musculus with 24 samples.

Results

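The 34 genes described here fold, check and clear proteins of the endoplasmic reticulum or report stress in that compartment, and they were taken by symbol from the 24421 genes of a count table. They comprise 14 chaperones and folding enzymes, 7 genes of endoplasmic-reticulum-associated degradation (ERAD), 3 stress sensors, 6 genes of the Atf4 branch and 4 genes of the translocon. They were followed over 3 B cell populations and 2 Vhl genotypes of mouse bone marrow. Vhl is the substrate-binding subunit of a ubiquitin ligase that marks hypoxia-inducible factors for destruction. All 8 mice carried 1 copy of Mb1-Cre, a recombinase placed in the Cd79a locus and expressed in B lineage cells, so the controls carried it too. In the 4 flox/flox mice lox sites flanked both alleles of Vhl, and in the 4 flox/WT mice 1 allele, the other being wild type. Each mouse gave 1 RNA-seq library of pro-B and pre-B cells together (proBpreB), 1 of immature and 1 of mature B cells, which makes 6 groups of 4 libraries. The sources used here give neither ages nor the surface markers of the gates.

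Secreted and membrane proteins, the B cell receptor among them, enter the endoplasmic reticulum through the Sec61 channel and fold there with the help of the Hsp70 chaperone BiP (Hspa5), its partners, the lectins calnexin and calreticulin, and disulfide isomerases. Misfolded chains are exported and degraded by ERAD. When unfolded chains accumulate, the membrane sensors Atf6, Ire1 (Ern1) and Perk (Eif2ak3) start the unfolded protein response: cleaved Atf6 and spliced Xbp1 raise chaperone and ERAD genes, and Perk phosphorylates the translation factor eIF2, which favours translation of Atf4 and, through it, transcription of amino acid and stress genes such as Trib3, Asns, Chac1, Ddit3 and Ppp1r15a. The eIF2 kinases of other stresses feed into the same Atf4 branch. In the B lineage this machinery is best known for its expansion in plasma cells.

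Libraries held 7850186 to 11863949 counts, and levels are CPM, counts relative to the library's total, scaled by TMM, a factor per library that aligns the bulk of the genes. Vhl measured 7.97 to 15.1, 3.07 to 8.16 and 5.39 to 9.79 CPM in the flox/flox libraries of proBpreB, immature and mature cells, below all flox/WT libraries (23.0 to 47.9 CPM). Where the lox sites lie within Vhl is not stated. The population labels were checked with marker lists: the summed CPM of 9 pro-B and pre-B markers ran over 2580.0 to 4051 in proBpreB and 165 to 279 in mature flox/WT libraries, and that of 9 mature B cell markers over 2813 to 3645 and 26952 to 30079. Calls below come from edgeR's quasi-likelihood test over 12850 genes at a Benjamini-Hochberg adjusted p of 0.05, and every adjusted p and SE refers to that fit. Of the 34 genes 33 entered it. Chac1, a glutathione-degrading enzyme induced through Atf4, had at most 1.31 CPM in any library, did not pass the filter on low counts and was not tested.

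Levels per kilobase of merged exons allow a rough comparison between genes. The length joins all annotated exons of a gene, whichever transcripts the cells expressed. On this scale Calr and Hspa5 had the highest levels of the measured members in mature flox/WT cells, at 230.2 and 227 CPM per kilobase. Pdia3 followed at 152 and Pdia4 at 148 CPM per kilobase. In proBpreB flox/WT cells the order differed, with Herpud1 at 253, Hsp90b1 at 208 and Hspa5 at 182 CPM per kilobase. The sensors and the Atf4 branch were below these genes in that group, from 0.239 for Chac1 to 55.8 for Atf4. Several chaperones lay in the same range, among them Dnajb11 at 43.7, Dnajc3 at 21.6 and Hyou1 at 6.34 CPM per kilobase. No per-length level is given for Ddit3, whose symbol matched more than 1 gene model.

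Promoters are shown because a control element known from chaperone genes can be read in the sequence. RefSeq promoters of GRCm38.p6 were at hand for 28 of the 34 genes, and the 250 bases before the start were searched on both strands. The endoplasmic reticulum stress element (ERSE, read as CCAAT, 9 bases of any kind and CCACG) was present in 8 of 28: Calr, Canx, Creld2, Dnajc3, Hsp90b1, Hspa5, Pdia6 and Syvn1. It was present in 0.122% of 27025 mouse promoters. Its variant ERSE-II (ATTGG, 1 base of any kind and CCACG), present in 0.0333% of promoters, was found in Herpud1 alone among the members. The C/EBP-Atf4 element (TGATG, 1 base of any kind and AA) was found in Asns, Chac1 and Herpud1, against 3.53% of all promoters. The hypoxia core, ACGTG or GCGTG, was in 23 of 28 promoters and in 38.6% of all promoters. Trib3 and Dnajb9, which rose, held it. So did 4 of the 5 chaperones with a promoter called lower in mature flox/flox cells, and 5 of the 6 chaperones not called there. The CCACG of both stress elements shares letters with the hypoxia core, so these counts are not independent, and a match is a description of letters, not a bound site. The shares over all promoters include genes that these cells may not express and were not matched for base composition. Capitals mark the ERSE of Calr (read on the other strand), Pdia6 and Hspa5, the ERSE-II of Herpud1, and the hypoxia cores of Dnajb9 (overlapping on both strands) and Trib3. Each sequence runs 5′ to 3′ on the strand of its gene.
Calr (chr8:84846932-84847181, minus strand): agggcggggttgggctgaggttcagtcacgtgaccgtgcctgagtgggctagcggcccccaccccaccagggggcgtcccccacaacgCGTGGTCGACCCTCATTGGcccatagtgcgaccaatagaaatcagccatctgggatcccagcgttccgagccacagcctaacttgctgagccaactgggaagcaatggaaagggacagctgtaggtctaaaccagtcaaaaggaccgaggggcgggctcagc
Pdia6 (chr12:17266339-17266588, plus strand): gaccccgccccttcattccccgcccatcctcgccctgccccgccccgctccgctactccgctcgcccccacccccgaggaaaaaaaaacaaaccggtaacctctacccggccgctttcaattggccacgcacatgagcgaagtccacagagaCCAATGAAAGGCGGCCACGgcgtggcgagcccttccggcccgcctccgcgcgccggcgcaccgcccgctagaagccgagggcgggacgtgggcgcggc
Hspa5 (chr2:34771840-34772089, plus strand): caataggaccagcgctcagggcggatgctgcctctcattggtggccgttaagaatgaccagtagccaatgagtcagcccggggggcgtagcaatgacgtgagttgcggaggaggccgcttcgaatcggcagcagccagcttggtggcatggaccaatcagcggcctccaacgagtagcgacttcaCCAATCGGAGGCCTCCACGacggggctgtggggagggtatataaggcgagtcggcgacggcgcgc
Herpud1 (chr8:94386179-94386428, plus strand): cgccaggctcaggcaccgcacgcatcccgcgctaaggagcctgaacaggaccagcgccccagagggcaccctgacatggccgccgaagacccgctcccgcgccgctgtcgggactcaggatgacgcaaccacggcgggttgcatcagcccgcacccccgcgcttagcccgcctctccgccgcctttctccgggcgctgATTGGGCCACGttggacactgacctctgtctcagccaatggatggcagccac
Dnajb9 (chr12:44210069-44210318, minus strand): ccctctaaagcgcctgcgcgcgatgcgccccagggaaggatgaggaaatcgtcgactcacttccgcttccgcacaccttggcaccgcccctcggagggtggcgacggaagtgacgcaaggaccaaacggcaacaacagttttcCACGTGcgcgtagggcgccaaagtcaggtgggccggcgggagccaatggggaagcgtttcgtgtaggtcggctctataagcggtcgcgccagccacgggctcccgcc
Trib3 (chr2:152344061-152344310, minus strand): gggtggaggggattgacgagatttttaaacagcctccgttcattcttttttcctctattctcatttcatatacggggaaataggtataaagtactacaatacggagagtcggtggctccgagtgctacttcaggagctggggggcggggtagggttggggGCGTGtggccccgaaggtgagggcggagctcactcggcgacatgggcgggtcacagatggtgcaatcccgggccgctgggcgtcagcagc

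Between genotypes, the members that changed were mostly chaperones of mature cells, which fell, and Trib3, which rose in all 3 populations. In mature cells 5 members rose and 7 fell, against 9.69% of all tested genes called higher and 6.62% called lower, and the median log2 change of the 33 was -0.06 beside 0.01 over all genes. In immature cells 3 rose and 1 fell, against 10.2% and 10.5% of all genes (20.7% in either direction), with a median of 0.09 beside a value close to 0. In proBpreB cells 1 rose and 1 fell, against 3.38% and 2.75% (6.13% in either direction), with a median of -0.05, again beside a value close to 0. The member shares in immature and proBpreB cells lay near or below those of all genes. In RNA of a sorted population, fewer cells of a type and less RNA per cell cannot be told apart.

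**Figure D1:**
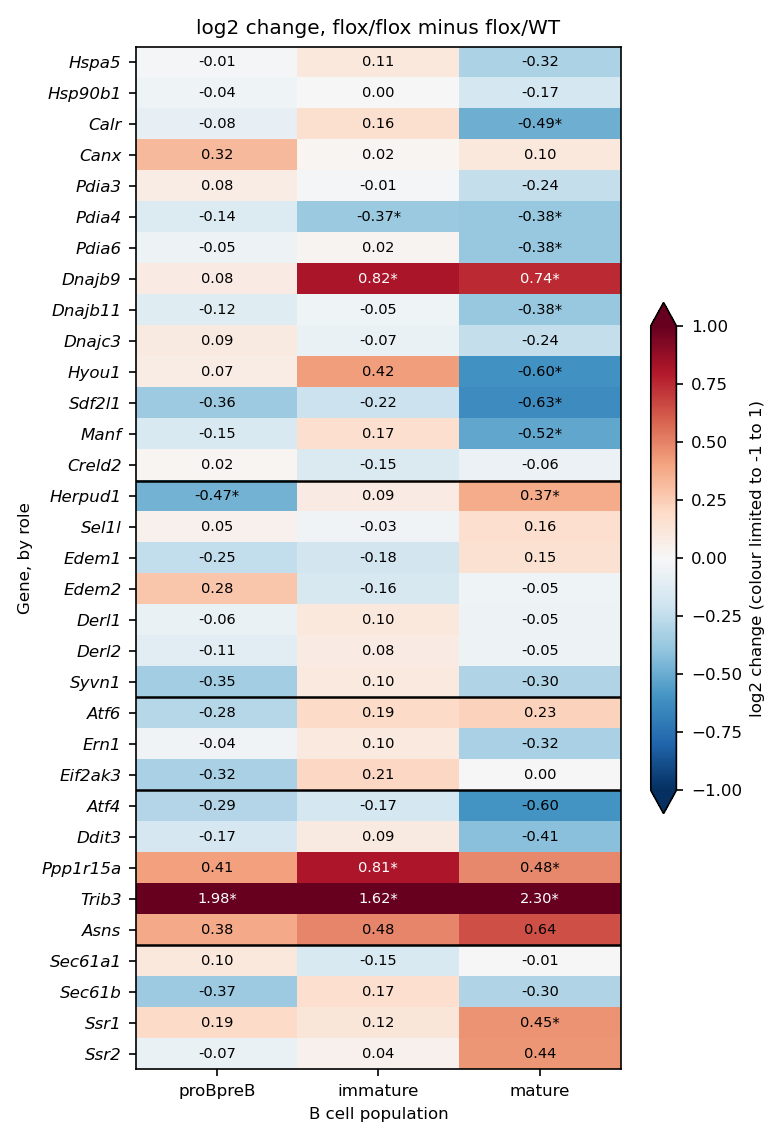
Log2 change of each tested member between flox/flox and flox/WT libraries (colour and printed value) in the 3 B cell populations, from the edgeR fit of 24 libraries. Asterisks mark adjusted p under 0.05 and lines separate chaperones and folding enzymes, ERAD, sensors, Atf4 branch and translocon. Trib3 is higher in every column, and the 7 falls with an asterisk in the mature column are all chaperones.

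Chaperones and folding enzymes fell in mature flox/flox cells: 7 of 14 were called lower and 1, Dnajb9, higher, and the median log2 change of the 14 was -0.35. Calr encodes the calcium-binding lectin calreticulin (chromosome 8, 84841850 to 84846934, GRCm38). It measured 695, 731, 680.0 and 546 CPM in flox/WT and 516, 491, 467 and 418 CPM in flox/flox mature cells, replicates 1 to 4. All 4 flox/flox libraries were below the lowest flox/WT library (log2 change -0.49 with SE 0.11, adjusted p = 0.00194). In immature cells the same gene measured 597, 744, 659 and 608 CPM in flox/WT and 825, 696, 709 and 692 CPM in flox/flox libraries, which overlap, with a log2 change of 0.16 (95% interval -0.06 to 0.39). The effect in mature cells was lower than that in immature cells (difference of genotype effects: log2 change -0.65 with SE 0.15, adjusted p = 0.00586), a call that held with each library left out in turn.

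Of the disulfide isomerases, Pdia4 (chromosome 6, 47796141 to 47813430) and Pdia6 (chromosome 12, 17266545 to 17284770) fell in mature cells. Pdia4 measured 370.4, 360.0, 374 and 315 CPM in flox/WT and 273, 309, 251 and 261 CPM in flox/flox cells, with every flox/flox library below every flox/WT library (log2 change -0.38 with SE 0.11, adjusted p = 0.0187). It also fell in immature cells, from 368, 477, 487 and 396 CPM to 408, 288, 321 and 319 CPM, where flox/flox replicate 1 lay within the flox/WT range (log2 change -0.37 with SE 0.11, adjusted p = 0.0163). Pdia4 is the member whose decrease was called in both later populations, although the immature call was lost without flox/WT replicate 2 or 3 or flox/flox replicate 2 (adjusted p up to 0.0741) and the mature one without flox/WT or flox/flox replicate 3 (up to 0.0632). Pdia6 measured 347, 384, 351 and 332 CPM in flox/WT and 274, 311, 228 and 277 CPM in flox/flox mature cells without overlap (log2 change -0.38 with SE 0.11, adjusted p = 0.0134), and 0.02 on the log2 scale in immature cells (95% interval -0.20 to 0.24). The third isomerase among the members, Pdia3, which acts on glycoproteins with calnexin and calreticulin, had a log2 change of -0.24 in mature cells (adjusted p = 0.0906).

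Partners of BiP moved in opposite directions. Dnajb11, a J-domain co-chaperone of the lumen (chromosome 16, 22857845 to 22879634), measured 133, 145, 136 and 120.4 CPM in flox/WT and 104, 114, 92.9 and 101 CPM in flox/flox mature cells and fell without overlap (log2 change -0.38 with SE 0.10, adjusted p = 0.0118). Sdf2l1, which forms a complex with Dnajb11 (chromosome 16, 17130138 to 17132383), measured 52.1, 48.2, 58.3 and 44.4 CPM in flox/WT and 35.7, 41.9, 27.1 and 26.2 CPM in flox/flox cells of the same population (log2 change -0.63 with SE 0.15, adjusted p = 0.00392), again with all flox/flox libraries lower. Dnajb9, known as ERdj4, a co-chaperone that represses Ire1 and is itself a target of the Ire1 arm (chromosome 12, 44205559 to 44210326), rose instead. Its level was 36.2, 28.6, 27.2 and 23.8 CPM in flox/WT and 47.4, 49.5, 62.7 and 33.9 CPM in flox/flox mature cells, where flox/flox replicate 4 lay within the flox/WT range (log2 change 0.74 with SE 0.16, adjusted p = 0.00171). In immature cells Dnajb9 measured 36.1, 35.2, 27.7 and 32.2 CPM in flox/WT and 71.0, 58.9, 45.4 and 55.2 CPM in flox/flox libraries with no overlap (log2 change 0.82 with SE 0.16, adjusted p = 0.000406), and in proBpreB cells 24.2, 28.1, 32.0 and 32.4 CPM in flox/WT and 28.4, 30.5, 34.2 and 30.4 CPM in flox/flox libraries, which overlapped (log2 change 0.08 with SE 0.16, adjusted p = 0.847).

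Hyou1, a large Hsp70-like nucleotide exchange factor of BiP (chromosome 9, 44379490 to 44392369), and Manf, a secreted and luminal BiP-binding protein (chromosome 9, 106838312 to 106891979), fell in mature cells. Hyou1 measured 52.1, 43.8, 51.5 and 44.8 CPM in flox/WT and 41.0, 27.8, 23.1 and 34.7 CPM in flox/flox mature cells (log2 change -0.60 with SE 0.20, adjusted p = 0.0395) and 25.9, 60.5, 61.4 and 53.2 CPM in flox/WT and 84.7, 59.9, 76.3 and 48.2 CPM in flox/flox immature cells (95% interval 0.00 to 0.83). The mature groups did not overlap, whereas immature flox/WT replicate 1 stood far below the other immature libraries. The mature call of Hyou1 was lost without flox/WT replicate 1, 3 or 4 or flox/flox replicate 2 or 3, and with library totals alone or no filter on low counts (adjusted p up to 0.144). Manf measured 91.7, 117, 92.7 and 80.8 CPM in flox/WT and 69.2, 73.3, 70.4 and 53.7 CPM in flox/flox mature cells (log2 change -0.52 with SE 0.13, adjusted p = 0.00584), with no overlap, and 104, 115, 90.3 and 85.4 CPM in flox/WT and 132, 103, 113 and 96.2 CPM in flox/flox immature cells. The genotype effect in mature cells was lower than that in immature cells for Manf (log2 change -0.69 with SE 0.18, adjusted p = 0.016) and for Hyou1 (log2 change -1.02 with SE 0.28, adjusted p = 0.0218), the latter lost without immature flox/flox replicate 1 or mature flox/flox replicate 3 and in a fit of the 4 groups compared (adjusted p up to 0.0601). Calr, Hyou1 and Manf were the 3 of 33 members whose effect differed between these populations, all lower in mature cells, against 7.74% of all genes in either direction, 2.23% lower and 5.51% higher.

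The remaining chaperones did not pass in any genotype comparison. Hspa5, the main Hsp70 of the compartment, measured 1133, 880.5, 1008 and 820.0 CPM in flox/WT and 913, 820.4, 612 and 741 CPM in flox/flox mature cells, where the groups overlapped (log2 change -0.32 with SE 0.14, adjusted p = 0.129). Hsp90b1, the luminal Hsp90, had -0.17, the Hsp70 co-chaperone Dnajc3 -0.24, Creld2 -0.06 and Canx, the membrane lectin calnexin, 0.10 on the log2 scale in that population, with adjusted p from 0.150 to 0.828. Counting groups that do not overlap, 10 of the 14 chaperones separated the genotypes in mature cells, against 16.3% of all genes. Of the 5 falling chaperones with a promoter sequence 2 held the ERSE, Calr and Pdia6, and of the 6 without a call 5 did.

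The chaperone falls in mature cells numbered 4 without flox/flox replicate 3, where Pdia4, Pdia6 and Hyou1 lost their calls, and 5 without flox/WT replicate 3. Cell type markers moved with genotype in the same libraries. The summed level of the 9 mature B cell markers ran over 26952 to 30079 CPM in flox/WT and 19954 to 23095 CPM in flox/flox mature cells, and that of 9 pro-B and pre-B markers over 165 to 279 and 320.0 to 374 CPM. Ranges of 7 plasma cell markers, 439.7 to 507 and 441 to 489 CPM, overlapped, and the plasma cell receptor Tnfrsf17 was at 0 in all flox/WT mature libraries. The lists of 6 plasmacytoid dendritic cell markers (1787 to 2244 and 1274 to 1698 CPM), 9 neutrophil and monocyte markers (11168 to 17486 and 12277 to 19965 CPM) and 6 erythroid markers (113 to 261 and 244 to 490.0 CPM) are given for flox/WT and flox/flox in that order. The 6 natural killer cell markers ran over 23.8 to 39.8 and 50.7 to 64.7 CPM. The 10 markers of cycling cells ran over 162 to 334 and 368 to 519 CPM, and the 5 T cell markers, which overlapped, over 36.7 to 54.2 and 42.5 to 73.6 CPM. Apart from Tnfrsf17 no marker of these lists was at 0 in either mature group, and their part in the result was not tested.

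**Figure D2:**
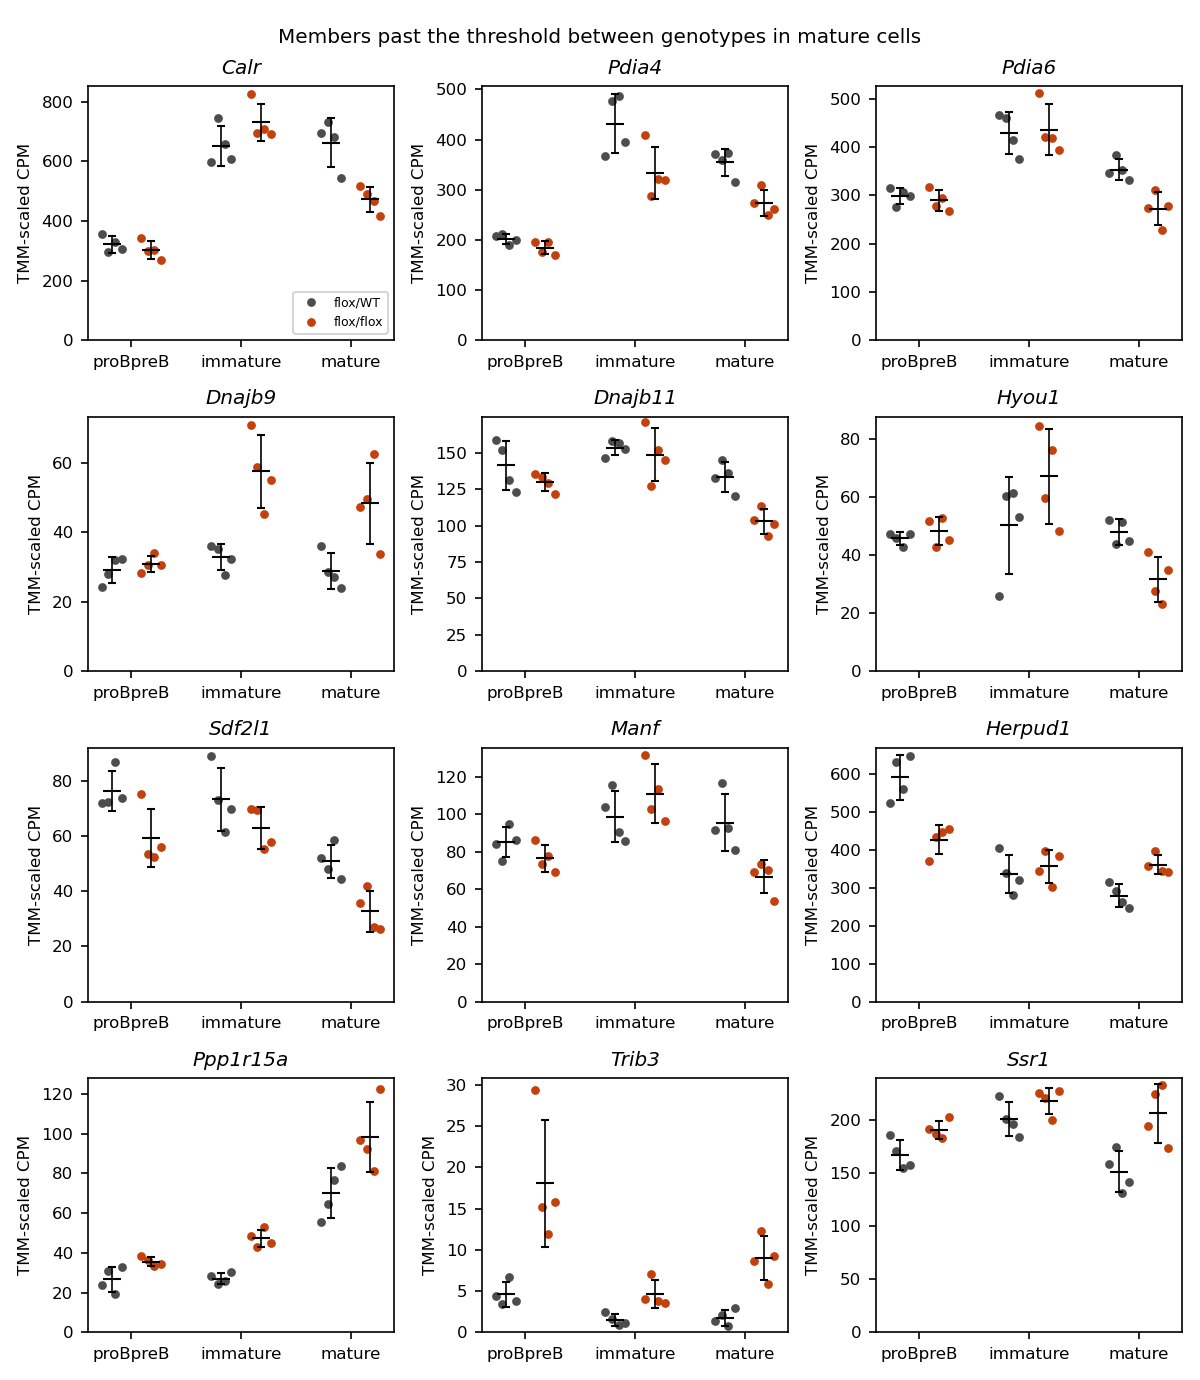
TMM-scaled CPM of the 12 members past the threshold between genotypes in mature cells, by B cell population, with 1 point per library (grey flox/WT, orange flox/flox) and the mean ± SD of 4 libraries in black. The 7 falling chaperones separate the genotypes in mature but not in proBpreB cells, while Trib3 separates them in every population.

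Of the 7 ERAD genes, Herpud1 was the only one called between genotypes, and its direction turned from the earliest to the latest population. Herpud1 is a membrane protein that assembles the degradation complex and is a classical stress-induced gene (chromosome 8, 94386438 to 94395377). In proBpreB cells it measured 523, 629.7, 560.4 and 647 CPM in flox/WT and 369, 434, 445 and 455 CPM in flox/flox libraries and fell without overlap (log2 change -0.47 with SE 0.11, adjusted p = 0.00964). In mature cells it measured 316, 289.8, 262 and 247 CPM in flox/WT and 357, 396, 345 and 342 CPM in flox/flox libraries and rose without overlap (log2 change 0.37 with SE 0.12, adjusted p = 0.0264). Immature cells overlapped, with 0.09 on the log2 scale (95% interval -0.16 to 0.33).

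The change of the Herpud1 effect from proBpreB to mature cells was itself called (log2 change 0.84 with SE 0.16, adjusted p = 0.00244), the 1 such member against 3.06% of all genes (2.27% higher and 0.786% lower), and it held in each of the 23 alternatives run. The mature rise alone was lost without flox/WT replicate 3 or 4 or flox/flox replicate 1 or 2 (adjusted p up to 0.0969), and the proBpreB fall without flox/flox replicate 1 (0.0565). In proBpreB cells the plasma cell list, which holds genes other B cells also express, ran over 1001 to 1077 CPM in flox/WT and 784 to 813 CPM in flox/flox libraries, beside 9 pro-B and pre-B markers at 2580.0 to 4051 and 3009 to 3786 CPM. The 9 mature B cell markers were lower without overlap (2813 to 3645 and 2106 to 2445 CPM) and the 5 T cell markers higher without overlap (89.1 to 111 and 121 to 173 CPM). The lists of plasmacytoid dendritic cells, natural killer cells and neutrophils and monocytes overlapped, at 1185 to 1765 and 976 to 1464 CPM, 123 to 183 and 152 to 248 CPM and 3859 to 5748 and 4029 to 5102 CPM. Their part in the result was not tested.

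Syvn1, the ubiquitin ligase Hrd1 at the centre of ERAD, did not pass in any population. Its proBpreB values were 268, 273, 275 and 272 CPM in flox/WT and 216, 215, 212 and 211 CPM in flox/flox libraries. These groups were narrow and did not overlap, yet the log2 change of -0.35 had an adjusted p of 0.0536. Sel1l, the adaptor of Hrd1, had log2 changes of 0.05, -0.03 and 0.16 in proBpreB, immature and mature cells. Edem1, a lectin-like mannosidase that passes misfolded glycoproteins on, had -0.25, -0.18 and 0.15, its paralogue Edem2 0.28, -0.16 and -0.05. In proBpreB cells the genotypes did not overlap for either gene, with Edem1 lower and Edem2 higher in flox/flox libraries, and neither passed. The rhomboid pseudoproteases Derl1 and Derl2 stayed within -0.11 and 0.10 in the 3 populations. Adjusted p of these 5 genes ran from 0.137 upwards.

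The sensors Atf6, Ern1 and Eif2ak3 did not pass between genotypes, with adjusted p from 0.0989 upwards over the 3 populations. Eif2ak3, the eIF2 kinase Perk, measured 179, 164, 144 and 184 CPM in flox/WT and 130.5, 124, 146 and 137 CPM in flox/flox proBpreB cells (log2 change -0.32 with SE 0.12, adjusted p = 0.0989) and 149, 183, 179.8 and 176 CPM in flox/WT and 176, 199, 221 and 198 CPM in flox/flox immature cells (log2 change 0.21 with SE 0.12, adjusted p = 0.218). The flox/WT and flox/flox ranges overlapped in both populations. Atf6, which is cleaved into a transcription factor, had log2 changes of -0.28, 0.19 and 0.23 in proBpreB, immature and mature cells. Ern1, the kinase and endoribonuclease Ire1, measured only 1.51 to 13.0 CPM over all libraries, and its log2 change in mature cells had a 95% interval of -0.97 to 0.32.

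The genotype effect in immature cells was higher than that in proBpreB cells for 3 of 33 members, Dnajb9 (log2 change 0.73 with SE 0.23, adjusted p = 0.0363), Herpud1 (log2 change 0.56 with SE 0.16, adjusted p = 0.0245) and Eif2ak3 (log2 change 0.53 with SE 0.16, adjusted p = 0.0338), against 10.9% of all genes in either direction, 4.72% higher and 6.14% lower. With the mouse as a replicate block the members called numbered 5, of which 4 were higher and 1 lower. With library totals alone the calls of Dnajb9 and Eif2ak3 were lost, and that of Eif2ak3 also with no filter on low counts. No member was called without proBpreB flox/WT replicate 4, proBpreB flox/flox replicate 1 or immature flox/WT replicate 4, and 1 of the 3 kept its call without proBpreB flox/flox replicate 2 or 4 (Herpud1), immature flox/WT replicate 3 (Eif2ak3) or immature flox/flox replicate 4 (Dnajb9). Without immature flox/flox replicate 2 all 3 lost their calls and another member was called.

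**Figure D3:**
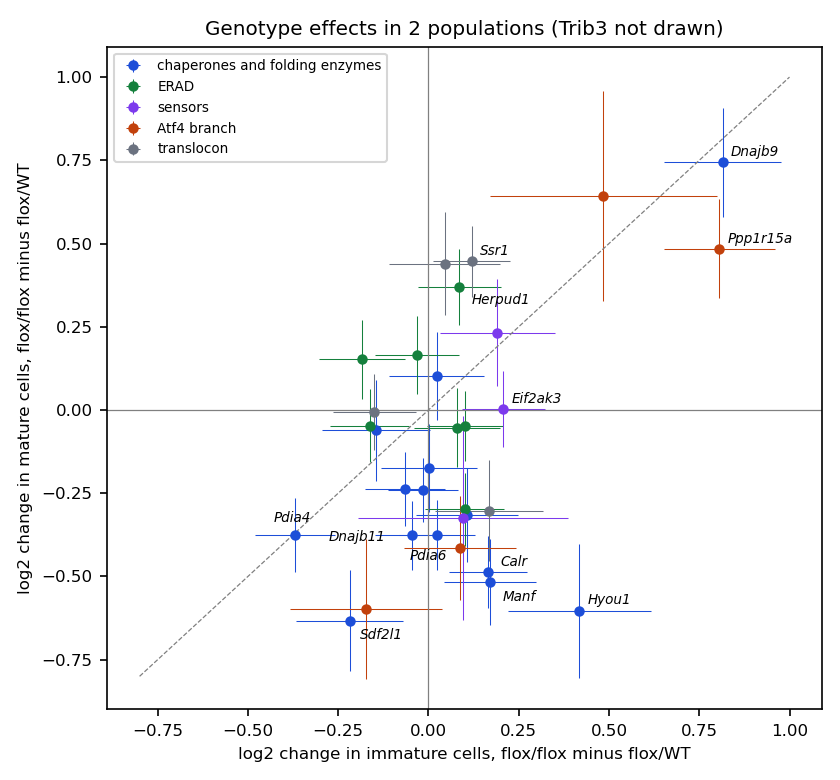
Log2 change between flox/flox and flox/WT in immature (horizontal axis) and mature cells (vertical axis) for the tested members other than Trib3, coloured by role, with bars of 1 SE and a dashed line of equal change. Dnajb9 and Ppp1r15a lie high on both axes, whereas Calr, Manf and Hyou1 lie right of 0 on the immature axis and below 0 on the mature axis.

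In the Atf4 branch, Trib3 rose in every population while Atf4 itself did not. Trib3, a pseudokinase that binds Akt and restrains Atf4 signalling (chromosome 2, 152337422 to 152344032), measured 4.42, 3.47, 6.73 and 3.77 CPM in flox/WT and 29.3, 15.2, 11.9 and 15.8 CPM in flox/flox proBpreB cells (log2 change 1.98 with SE 0.34, adjusted p = 0.000225). Its level was 2.53, 1.65, 0.841 and 1.11 CPM in flox/WT and 4.00, 7.12, 3.81 and 3.51 CPM in flox/flox immature cells (log2 change 1.62 with SE 0.40, adjusted p = 0.00385) and 1.33, 2.14, 0.746 and 2.95 CPM in flox/WT and 8.70, 12.3, 5.81 and 9.29 CPM in flox/flox mature cells (log2 change 2.30 with SE 0.38, adjusted p = 6.71e-05). All flox/flox libraries exceeded all flox/WT libraries of their population, at 3.93, 3.08 and 4.91 times their level. The calls held in each of the 15 alternatives of each population. The effect did not pass a test of difference between populations, with 95% intervals of -1.48 to 0.77 for immature minus proBpreB and -0.50 to 1.85 for mature minus immature. Trib3 was a low-level gene throughout: it did not exceed 29.3 CPM in any library.

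Ppp1r15a, also called Gadd34, the phosphatase subunit that reverses eIF2 phosphorylation (chromosome 7, 45522916 to 45526268), rose in the 2 later populations. It measured 28.2, 24.1, 25.7 and 30.2 CPM in flox/WT and 48.5, 43.0, 52.8 and 44.8 CPM in flox/flox immature cells, without overlap (log2 change 0.81 with SE 0.15, adjusted p = 0.000275). In mature cells the values were 55.4, 64.8, 76.6 and 83.7 CPM and 96.7, 92.1, 81.3 and 123 CPM, where flox/flox replicate 3 lay within the flox/WT range (log2 change 0.48 with SE 0.15, adjusted p = 0.0235), a call lost without flox/WT replicate 1 or 2 or flox/flox replicate 4 and in a fit of the 2 groups compared (adjusted p up to 0.112). In proBpreB cells it measured 23.8, 30.9, 19.3 and 32.8 CPM in flox/WT and 38.5, 36.3, 33.4 and 34.2 CPM in flox/flox libraries, which did not overlap but did not pass (log2 change 0.41 with SE 0.15, adjusted p = 0.116).

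Atf4, the transcription factor of the branch, measured 57.8, 43.9, 90.3 and 97.0 CPM in flox/WT and 40.7, 41.5, 47.0 and 62.1 CPM in flox/flox mature cells. Its log2 change of -0.60 had an adjusted p of 0.0513, and flox/WT replicates 3 and 4 were high. Its effects in proBpreB and immature cells were -0.29 and -0.17. In proBpreB cells all flox/flox libraries (101 to 113 CPM) were below all flox/WT libraries (126 to 141 CPM), yet the change did not pass (adjusted p = 0.485). Ddit3, the factor Chop, had -0.41 in mature cells (adjusted p = 0.0661). Asns, asparagine synthetase, had 0.38, 0.48 and 0.64 in the 3 populations with adjusted p of at least 0.169. Atf4 is controlled largely in translation, which counts of its mRNA do not measure.

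In immature cells, where Dnajb9, Ppp1r15a and Trib3 rose, cell type markers differed too. The 10 markers of cycling cells ran over 1274 to 1971 CPM in flox/WT and 327 to 507 CPM in flox/flox libraries, the 9 pro-B and pre-B markers over 477 to 685 and 1109.9 to 1461 CPM, and the 9 neutrophil and monocyte markers over 7907 to 9331 and 11574 to 15498 CPM. The 6 erythroid markers ran over 107 to 137 and 263 to 313 CPM, and the 6 natural killer cell markers over 15.2 to 24.3 and 28.7 to 40.7 CPM. Sums of the 9 mature B cell markers, 13827 to 16643 and 12034 to 13178 CPM, and of the 7 plasma cell markers, 525 to 697 and 461 to 522 CPM, were lower in flox/flox libraries without overlap, and Tnfrsf17 was at 0 in all flox/flox immature libraries. The plasmacytoid dendritic cell list (2624 to 3579 and 2966 to 3714 CPM) and the 5 T cell markers (26.1 to 38.6 and 34.6 to 37.4 CPM) overlapped. Their part in the result was not tested. In proBpreB cells, beside the Trib3 rise, the erythroid list ran over 109.7 to 142 and 183 to 218 CPM and the cycling list, which overlapped, over 2948 to 4019 and 3246 to 3912 CPM, likewise not tested.

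Among the translocon genes Ssr1, a subunit of the translocon-associated protein complex (chromosome 13, 37966605 to 37994217), rose in mature cells. It measured 159, 175, 131 and 142 CPM in flox/WT and 195, 225, 234 and 174 CPM in flox/flox libraries, where flox/flox replicate 4 lay within the flox/WT range (log2 change 0.45 with SE 0.11, adjusted p = 0.0038). Its partner Ssr2 had 0.44 (adjusted p = 0.0508). The channel subunit Sec61a1 had -0.01 and the small subunit Sec61b -0.30, neither past the threshold, so the 4 genes did not share a direction. Whether counting used strand is not stated, and exons of Ssr2, Sec61a1, Eif2ak3, Hsp90b1 and Manf overlap another annotated gene over 4.14% to 12.82% of their length, so reads of such pairs cannot be told apart.

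Across stages, more members were called higher than lower in immature against proBpreB cells, and more lower than higher in mature against immature cells. In flox/WT mice 14 of 33 members rose and 4 fell at this step, against 24% and 25.4% of all genes, and in flox/flox mice 19 rose and 4 fell, against 28.7% and 27.2%. The totals of 18 and 23 calls are near the shares of all genes called, 49.4% and 55.9%, while the excess of higher calls depends on the scaling: with library totals alone, which shift the median of all genes by -0.21 and -0.27, the splits were 8 higher to 9 lower and 8 to 8. The TMM factors were 1.11 to 1.15 in proBpreB and 0.887 to 1.00 in the other libraries. The members' medians were 0.17 and 0.31 with TMM, beside values of all genes close to 0 and of 0.02, and -0.04 and 0.02 with library totals alone.

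Other marker lists moved with stage as well, and are given for proBpreB, immature and mature flox/WT libraries in that order. Plasmacytoid dendritic cell markers ran over 1185 to 1765, 2624 to 3579 and 1787 to 2244 CPM, and neutrophil and monocyte markers over 3859 to 5748, 7907 to 9331 and 11168 to 17486 CPM. The plasma cell list ran over 1001 to 1077, 525 to 697 and 439.7 to 507 CPM, the natural killer cell list over 123 to 183, 15.2 to 24.3 and 23.8 to 39.8 CPM and the T cell list over 89.1 to 111, 26.1 to 38.6 and 36.7 to 54.2 CPM. Markers of cycling cells ran over 2948 to 4019, 1274 to 1971 and 162 to 334 CPM, and erythroid markers over 109.7 to 142, 107 to 137 and 113 to 261 CPM. In flox/flox mice the plasmacytoid dendritic cell list ran over 976 to 1464, 2966 to 3714 and 1274 to 1698 CPM, the neutrophil and monocyte list over 4029 to 5102, 11574 to 15498 and 12277 to 19965 CPM and the cycling list over 3246 to 3912, 327 to 507 and 368 to 519 CPM. A sum does not tell expression of listed genes in B lineage cells from the presence of other cells. The part of other cells in the stage changes was not tested.

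**Figure D4:**
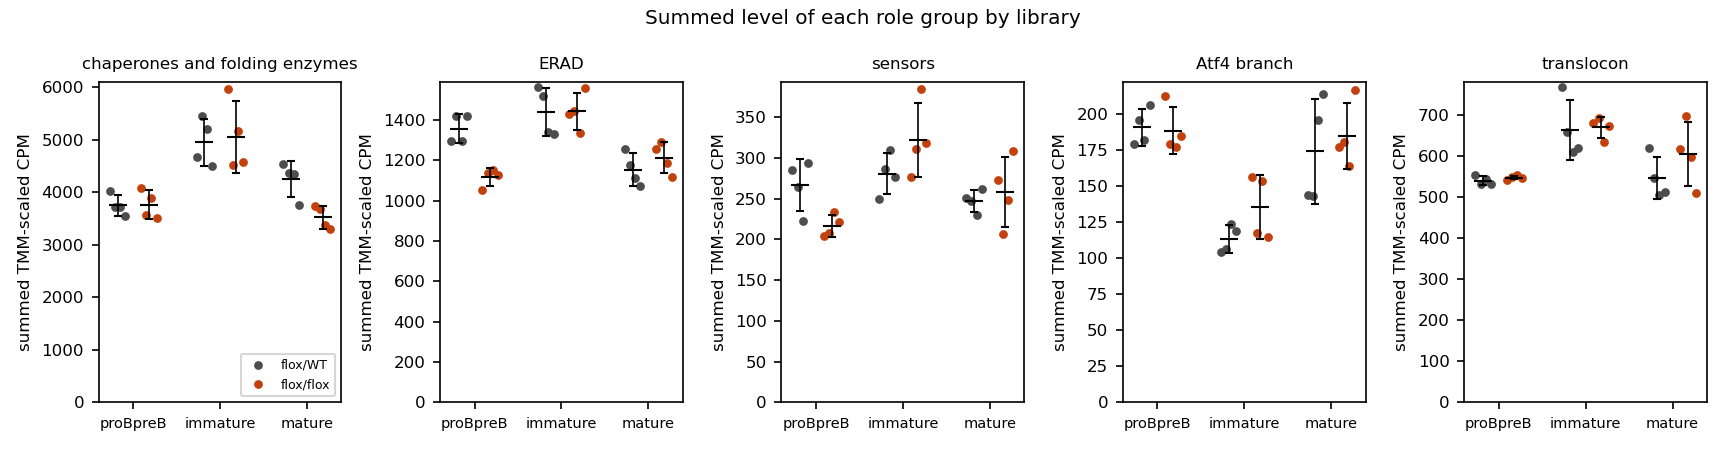
Summed TMM-scaled CPM of the members of each role group by B cell population, with 1 point per library (grey flox/WT, orange flox/flox) and the mean ± SD of 4 libraries in black. The chaperone sum is highest in immature cells of both genotypes, and in mature cells flox/flox libraries have the lower mean, and the Atf4 branch dips in immature cells.

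The steepest rises from proBpreB to immature cells in flox/WT mice were those of Edem1, Pdia4 and Calr. Edem1 went from 137 ± 13.0 to 351 ± 43.8 CPM in flox/WT (mean ± SD, n = 4 each; log2 change 1.36 with SE 0.12, adjusted p = 2.21e-10) and from 115 ± 4.85 to 309 ± 20.5 CPM in flox/flox mice (log2 change 1.42 with SE 0.12, adjusted p = 6.74e-11). Pdia4 rose from 202 ± 10.2 to 432 ± 59.0 CPM in flox/WT mice (log2 change 1.09 with SE 0.11, adjusted p = 3.65e-09), and Calr from 321 ± 27.7 to 652 ± 67.3 CPM (log2 change 1.02 with SE 0.11, adjusted p = 8.02e-09). Derl1 and Sel1l rose by 0.70 and 0.65 on the log2 scale in flox/WT and by 0.87 and 0.57 in flox/flox mice. These 5 genes kept their calls and directions in both genotypes under all alternatives run.

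Herpud1, Atf4, Trib3 and Ern1 were the 4 members that fell at this step in flox/WT mice. Herpud1 went from 590.0 ± 58.4 to 336 ± 50.8 CPM in flox/WT mice (log2 change -0.81 with SE 0.12, adjusted p = 1.07e-06), whereas in flox/flox mice it went from 426 ± 38.6 to 356 ± 42.8 CPM and did not pass (log2 change -0.26 with SE 0.11, adjusted p = 0.057). Atf4 fell from 132 ± 6.44 to 55.3 ± 9.54 CPM in flox/WT (log2 change -1.25 with SE 0.21, adjusted p = 1.84e-05) and from 108 ± 4.90 to 49.1 ± 16.1 CPM in flox/flox mice (log2 change -1.13 with SE 0.21, adjusted p = 6.01e-05). Trib3 fell from 4.60 ± 1.47 to 1.53 ± 0.743 CPM in flox/WT (log2 change -1.62 with SE 0.39, adjusted p = 0.00111) and from 18.1 ± 7.70 to 4.61 ± 1.68 CPM in flox/flox mice (log2 change -1.97 with SE 0.35, adjusted p = 2.44e-05). Of the 3 populations of flox/WT mice, proBpreB cells had the highest mean of Herpud1, Atf4 and Trib3.

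From immature to mature cells 1 member was higher and 8 were lower in flox/WT mice (15.6% and 17.1% of all genes), and 2 were higher and 15 lower in flox/flox mice (12.9% and 13.6%, or 26.5% in either direction). Library totals alone gave 1 higher and 13 lower in flox/WT mice. Of the 14 chaperones 4 fell in flox/WT and 9 in flox/flox mice. The flox/WT count was 7 with library totals alone and 2 with no filter on low counts, without immature flox/WT replicate 2 or 3, or without mature flox/WT replicate 3 or 4, whereas the flox/flox count was 9 or 10 in all alternatives run. The flox/WT calls of Pdia4 and Pdia6 were lost in 8 and 7 of 15 alternatives, and those of Hsp90b1 and Sdf2l1 in none. Calr had log2 changes of 0.02 in flox/WT (95% interval -0.20 to 0.25) and -0.63 in flox/flox mice (SE 0.11, adjusted p = 5.09e-05). Hyou1 had -0.07 and -1.09, Manf -0.05 and -0.73, and for these 3 genes the difference between genotypes passed its test. Sdf2l1 and Hsp90b1 fell in both genotypes, with log2 changes of -0.53 and -0.58 in flox/WT and -0.94 and -0.76 in flox/flox mice.

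Edem1 fell to 146 ± 25.2 CPM in mature flox/WT cells (log2 change -1.26 with SE 0.12, adjusted p = 2.17e-09). It also fell in flox/flox mice, to 163 ± 24.0 CPM (log2 change -0.92). Ppp1r15a was the 1 member called higher in both genotypes, from 27.0 ± 2.67 to 70.1 ± 12.6 CPM in flox/WT (log2 change 1.37 with SE 0.15, adjusted p = 3.88e-08) and from 47.3 ± 4.35 to 98.2 ± 17.6 CPM in flox/flox mice (log2 change 1.05 with SE 0.15, adjusted p = 3.48e-06). Ssr1 and Ssr2 fell in flox/WT mice, with log2 changes of -0.41 and -0.65, and had -0.08 and -0.26 in flox/flox mice, neither past the threshold. The difference between genotypes at this step did not pass its test for any of the 4 translocon genes. Atf6 fell in flox/WT mice from 102 ± 12.6 to 67.6 ± 5.25 CPM (log2 change -0.60 with SE 0.16, adjusted p = 0.00466). It was also called lower in flox/flox mice (log2 change -0.56). That call was lost without immature flox/flox replicate 3 and in a fit of only the groups compared.

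The wider pathway, 57 further genes of the same functions of which 56 were tested, gave 2 higher and 2 lower calls in proBpreB, 5 and 5 in immature and 6 and 1 in mature cells, with medians of -0.02, 0.02 and -0.01. Over all genes 6.13%, 20.7% and 16.3% were called in these populations, so the shares called in the wider pathway, 4, 10 and 7 of 56, were near or below those of all genes. The highest log2 change in each population was that of Ero1l. Ero1l (Ero1a), the oxidase that recharges disulfide isomerases and a gene known to be induced by hypoxia, rose in every population: from 33.7 ± 3.19 to 181 ± 9.04 CPM in proBpreB (log2 change 2.43 with SE 0.13, adjusted p = 1.34e-14), from 57.6 ± 7.50 to 268 ± 22.3 CPM in immature and from 50.5 ± 10.4 to 273 ± 32.9 CPM in mature cells. Its paralogue Ero1lb fell in proBpreB cells (log2 change -0.59 with SE 0.10, adjusted p = 0.000346). P4hb, the founding disulfide isomerase and also a subunit of collagen prolyl hydroxylase, rose by 0.61, 0.95 and 0.62 on the log2 scale in proBpreB, immature and mature cells, where Pdia4 and Pdia6 fell or did not pass. Txndc11 rose in immature cells (log2 change 0.41 with SE 0.11, adjusted p = 0.00844) and Pdia5, at 0.478 ± 0.375 to 1.55 ± 0.440 CPM, in mature cells (log2 change 1.65 with SE 0.45, adjusted p = 0.0112).

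Xbp1, the factor spliced by Ire1, rose in immature cells from 261 ± 36.8 to 437 ± 47.7 CPM (log2 change 0.75 with SE 0.12, adjusted p = 4.17e-05). In mature cells it measured 228 ± 30.4 and 234 ± 35.1 CPM, and the difference between these effects passed (log2 change -0.71 with SE 0.17, adjusted p = 0.00861). Gene counts do not tell spliced from unspliced Xbp1. Of the further ERAD genes, Edem3 fell in proBpreB cells (log2 change -0.77 with SE 0.15, adjusted p = 0.00148), Derl3 rose in immature cells (log2 change 0.81 with SE 0.27, adjusted p = 0.0299) and the conjugating enzyme Ube2j1 rose in mature cells (log2 change 0.43 with SE 0.11, adjusted p = 0.01).

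Further Atf4 targets and eIF2 kinases gave calls in both directions. In immature cells 5 of the 12 tested fell, against 10.5% of all genes called lower, and the others did not pass. The falls included the serine synthesis enzymes Phgdh, from 315 ± 39.2 to 134 ± 7.97 CPM (log2 change -1.23 with SE 0.12, adjusted p = 2.61e-09), and Psat1 (log2 change -0.89 with SE 0.13, adjusted p = 1.29e-05), and the eIF2 kinase Pkr, Eif2ak2 (log2 change -0.73 with SE 0.18, adjusted p = 0.00337). In mature cells 2 rose, the cystine transporter Slc7a11 (log2 change 2.05 with SE 0.49, adjusted p = 0.00423) and the stress factor Atf3 (log2 change 2.23 with SE 0.58, adjusted p = 0.00803), and Slc3a2, the heavy chain that partners Slc7a11, fell (log2 change -0.39 with SE 0.10, adjusted p = 0.00925). The effects on Phgdh and Psat1 differed between immature and mature cells, by 1.09 and 1.21 on the log2 scale (adjusted p = 2.81e-05 and 7e-05). Of the 14 further genes of translocation and glycosylation the lowest adjusted p between genotypes was 0.0815, with medians of -0.02, 0.07 and 0.01.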

How the data were processed

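RNA-seq of sorted cells from 8 mice gave 24 libraries, prepared per the labels' protocols with the low-input SMARTer Universal kit. The deposited table used holds raw counts of 24421 genes, which the authors made by counting reads per symbol. Per the submitters' processing notes, the tools were CASAVA and FastQC, Trim Galore for trimming, HISAT2, featureCounts and also DESeq2, on mm10. Versions, settings, annotation and strand use are stated by none of the sources. A second deposited table, of normalised values, was not used.

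Counts were tested in R 4.3.3 with edgeR 4.0.16 by a robust quasi-likelihood fit (TMM, low counts removed by filterByExpr over 6 groups) of 24 libraries with 18 residual degrees of freedom and 12850 genes, a procedure first tested on simulated data. Benjamini-Hochberg adjustment covered all genes in each of 10 comparisons: 3 between genotypes, 4 between stages and 3 differences of genotype effects. The 95% intervals were built from the SE and a t distribution with the 18 residual degrees of freedom. The test also borrows degrees of freedom across genes, so an interval can be slightly wider than the unadjusted p-value of the same test implies. Totals of 7850186 to 11863949 counts limit the precision of low genes, and PCR copies were not marked. Libraries of a group differed by a chi-square per degree of freedom of at least 6.05, so none was counted as a repeat of another. Alternatives were RLE size factors, library totals alone, no filter on expression, at least 10 CPM in 4 libraries, a fit of only the groups compared, DESeq2 1.42.0, a replicate block and each library left out in turn.

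The members and lists were chosen with earlier results of these data known. Any of the 34 members could be named, with per-library values for those past the threshold between genotypes, and of the 57 further pathway genes at most the 3 smallest adjusted p per list and comparison. Per-library values of members that did not pass, such as Hspa5, Syvn1 and Atf4, and the further chaperone values were chosen after they were seen. The stages of 1 mouse share the animal by its label, so stages are paired. Deviations from group means of such libraries correlated at -0.28 to 0.37 over 5000 genes, 16 of 24 above 0.1. Positions and exon lengths came from GENCODE M21 (GRCm38), promoters from RefSeq (GRCm38.p6).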

Additional observations from a re-analysis of the deposited data

Results flagged for a closer look

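The genotype effect of 7 gene and population pairs differed between populations by an edgeR test of that difference. On the log2 scale the immature effect exceeded the proBpreB effect by 0.73 for Dnajb9, 0.56 for Herpud1 and 0.53 for Eif2ak3. The mature effect differed from the immature effect by -0.65 for Calr, -1.02 for Hyou1 and -0.69 for Manf. The mature effect exceeded the proBpreB effect of Herpud1 by 0.84. Their tests stand beside the results above.

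In 12 of 203 combinations of a member and a group, 1 library stood apart from the other 3, with a gap to its nearest neighbour that made up most of the group's range, past Dixon's 95% critical value for 4 samples. Chance flags about 1 in 20 groups by this criterion. The gap as a share of the range is given for each. In proBpreB flox/flox cells these were Pdia3 (0.891), Sdf2l1 (0.838) and Chac1 (0.897), each highest in replicate 1, Edem2 (0.934), highest in replicate 2, and Dnajc3 (0.894), highest in replicate 3. In proBpreB flox/WT cells Sdf2l1 was highest in replicate 3 (0.883). In immature flox/flox cells Calr was highest in replicate 1 (0.867), Trib3 highest in replicate 2 (0.866) and Derl2 lowest in replicate 3 (0.834). In immature flox/WT cells Atf6 was highest in replicate 3 (0.920). In mature cells Creld2 was highest in flox/flox replicate 2 (0.966) and Sec61a1 highest in flox/WT replicate 1 (0.876).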

How the results depend on the processing

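Of the member changes called in the 10 comparisons, recomputed under each alternative, 1262 values kept direction and call, 172 lost the call and 2 reversed. Pdia3 and Sec61a1 measured -0.024 and -0.013 on the log2 scale from proBpreB to immature flox/flox cells with library totals alone. With that scaling 14 members were called from immature to mature flox/WT cells instead of 9. For the difference of genotype effects between immature and proBpreB cells DESeq2 and the replicate block each called 5 members instead of 3, and leaving out 1 library gave 0 to 3. Leaving out 1 library gave 1 to 3 calls in place of 2 for the genotype effect in proBpreB cells and 1 to 2 in place of 1 for the difference between mature and proBpreB cells. The cause was not tested. Between genotypes the replicate numbers share only a number: deviations of same-numbered libraries correlated at -0.30 to 0.54, 5 of 12 above 0.1, and with that replicate block 3, 4 and 14 members were called in proBpreB, immature and mature cells. In the paired fit by mouse the falls of Ern1 in flox/flox mice lost their calls (adjusted p = 0.0517 from proBpreB to immature and 0.0674 from immature to mature), and no other member's call changed direction or was lost. Over all genes, calls in mature cells numbered 1296 with only the groups compared instead of 2096, those in proBpreB cells 493 without flox/WT replicate 4 instead of 788, and those of the difference between mature and proBpreB cells 599 by DESeq2 instead of 393. Genes of low counts, Trib3, Ern1 and Chac1 among the members, are measured least precisely.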
